A study of Arabidopsis thaliana with 3 samples.

Results

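SPL10 peaks were described at the auxin response genes IAA and SAUR of Arabidopsis thaliana, chosen by gene name with earlier results of these data known. The rule took every nuclear gene whose symbol or synonym in the TAIR10.1 gene annotation is IAA or SAUR followed by a number. The rule gave 112 genes of 37899 nuclear genes, all of them protein-coding, of which 32 carried an IAA number and 80 a SAUR number. The study mapped DNA retained by the SBP-domain factor SPL10 with DAP-seq, in which DNA recovered with a transcription factor is sequenced and set against an input library. It held 2 SPL10 precipitations and 1 input, all from leaf of ecotype Col-0 with no other genotype or treatment given, so the SPL10 samples differ from the input by the precipitation. Per the labels the material was fixed with formaldehyde and sonicated, the sources used here do not say how the SPL10 protein was supplied, and nothing says that the precipitations came from separate plants.

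The lists held 21574 peaks in replicate 1 and 21439 in replicate 2, and the input log counted 19553456 read pairs with an overall alignment rate of 82.31%. A peak was called shared when its intervals in both lists overlapped reciprocally by 50% or more, which left 16697 shared peaks with a median of 57 tags (sequenced fragments counted at the summit) in replicate 1 and 53 in replicate 2. A gene was called bound when the summit of a shared peak, the mean of both summits, lay in the gene or within 2000 bp of either end. Fold enrichment is the authors' own value per peak, the ratio of the summit to the caller's background. Ranges in brackets after a fold are exact Poisson intervals at the 95% level on the recovered tags. They reflect counting error alone. They are left out for summits with more than 198 tags, the width in bp of the narrowest deposited peak, since the highest tag numbers at shared peaks were 396 in replicate 1 and 394 in replicate 2 and may be limited by it. Of all nuclear genes, 57.4% were bound by this rule, so a shared peak near a gene is by itself a common event.

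Auxin acts by removing Aux/IAA proteins, the products of most IAA genes. These proteins are repressors that hold ARF transcription factors inactive through TPL-type corepressors. When auxin is present, the TIR1 and AFB receptors bind the Aux/IAA degron and mark the protein for destruction, and ARF targets are released, among them the IAA genes themselves, the GH3 genes and many SAUR genes. SAUR genes encode short proteins, many of which promote cell expansion by inhibiting D-clade PP2C phosphatases and so keeping the plasma-membrane proton pump active. Many SAUR genes lie in tandem arrays of close copies.

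Of the 80 SAUR genes, 50 were bound, or 62.5% (exact binomial interval 51.0% to 73.1%), against 57.4% of all nuclear genes, 56.1% of protein-coding genes no longer than the longest SAUR gene and 48.5% of protein-coding genes of up to 1000 bp. The shares of all nuclear genes and of coding genes up to the longest SAUR gene lay within the interval. Against these the count does not set the family apart. SAUR genes are short, with a median length of 815 bp, so their windows are smaller than those of most genes. The coding genes of up to 1000 bp are shorter still, with a median of 676 bp. The bound SAUR genes carried strong peaks: the median of their strongest peak was 6.68-fold, against 4.39-fold over all bound nuclear genes and 4.03-fold over bound coding genes of up to 1000 bp. A shared peak of 10-fold or more, a level chosen after seeing the data, stood at 20 of 80 SAUR genes, or 25% (15.99% to 35.9%), against 7.62% of all nuclear genes, 7.89% of protein-coding genes and 6.19% of coding genes of up to 1000 bp. Taken as peaks, 28 of the 80 distinct shared peaks in SAUR windows, or 35%, reached 10-fold, against 9.7% of all shared peaks. These shares are descriptions without a test, since neighbouring genes and peaks are not independent.

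The SAUR genes were also divided by their position in the genome. SAUR genes at most 10000 bp apart were joined to 1 locus, which gave 9 tandem clusters with 37 genes and 43 genes outside clusters. Outside clusters, 38 of 43 SAUR genes were bound, or 88.4% (74.9% to 96.1%), and 15 of 43, or 34.9% (21.0% to 50.9%), had a peak of 10-fold or more. In the clusters, 12 of 37 genes were bound, or 32.4% (18.01% to 49.8%), and 5 of 37, or 13.5% (4.54% to 28.8%), had a peak of 10-fold or more. The intervals treat each gene as independent, which neighbours in a cluster are not. All nuclear genes, at 57.4% bound and 7.62% with a peak of 10-fold or more, lay below the genes outside clusters in both shares, and above the clustered genes in the share bound. With each cluster counted once, 5 of 9 clusters had a bound gene, or 55.6%, against 57.4% of all nuclear genes. Over all SAUR loci, 43 of 52 were bound, or 82.7% (69.7% to 91.8%), although a locus of several genes offers a wider window than a single gene. With SAUR genes at most 5000 bp apart joined, it was 43 of 55 loci, or 78.2%. With no other nuclear gene allowed between the SAUR genes of a locus, it was 46 of 65, or 70.8%. The shares in and outside clusters are given for the 10000 bp rule alone.

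The share bound was higher for SAUR genes outside clusters than for those in clusters under each other way of choosing peaks or windows, as a description without a test. With a reciprocal overlap of 80%, 86.0% of those outside clusters and 29.7% of those in clusters were bound, against 47.5% of all nuclear genes. With any overlap of the lists it was 88.4% and 40.5%, against 59.2%. With −log10 q of at least 10 in both replicates it was 67.4% and 21.6%, against 34.4%, so the order was the same with the stricter peaks. Taking the 5000 shared peaks of highest fold gave 53.5% and 18.9%, against 21.7%, and the clustered genes, 7 of 37, were then near the background. Windows of 1000 bp gave 65.1% and 21.6%, against 43% of all nuclear genes. With gene bodies left out the shares were 81.4% and 32.4%, against 44.7%. Counting a peak only for its nearest gene gave 60.5% and 16.2%, against 33.8%, and replicate 1 or replicate 2 alone gave 90.7% and 43.2% each, against 67.1% and 66.7%.

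**Figure D1:**
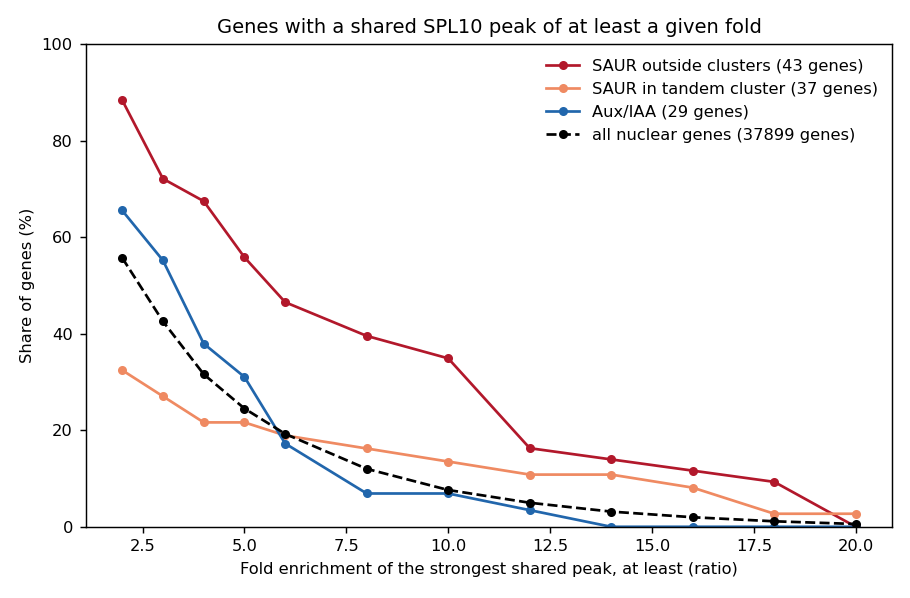
Share of genes (%, vertical axis) whose strongest shared SPL10 peak reached at least the fold on the horizontal axis, for 43 SAUR genes outside clusters, 37 SAUR genes in tandem clusters, 29 Aux/IAA genes and all nuclear genes. At 10-fold the share is 34.9% for SAUR genes outside clusters, 13.5% for clustered SAUR genes and 6.90% for Aux/IAA genes, against 7.62% for all nuclear genes.

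Among the SAUR genes outside clusters, 5 had peaks above 17-fold in both replicates. SAUR47 (AT3G20220) had 19.7-fold in replicate 1 and 19.8-fold in replicate 2, on chromosome 3 at 7054510 to 7054909 (TAIR10, replicate 1), 110.5 bp off the lower-coordinate end. That summit lay inside the neighbouring gene DELTA-VPE, which encodes a vacuolar processing enzyme. SAUR41 (AT1G16510), named for a subfamily studied in cell expansion and meristem patterning, had 19.0-fold and 20.1-fold at positions 5642544 to 5643533 of chromosome 1, with a summit 1785.5 bp away inside a long noncoding RNA gene. SAUR53 (AT1G19840) had 19.3-fold in each replicate on chromosome 1 at 6871541 to 6872818, with the summit 103 bp off and SAUR53 the nearest gene. At all 3 genes the lower replicate was at 19.0-fold or more. SAUR34 (AT4G22620) had 18.1-fold and 19.5-fold, with a summit 425 bp off inside AT4G22630. SAUR44 (AT5G03310) had 17.2-fold and 18.4-fold, 313 bp past its higher-coordinate end and nearer to ADK2, an adenosine kinase gene.

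The next 5 by fold reached from 14.9-fold to 10.9-fold as means of both replicates. SAUR36 (AT2G45210), also named SAG201 and known for a role in leaf senescence, had 14.1-fold and 15.7-fold with a summit 1531 bp off inside GOS12, a gene for a Golgi SNARE protein. SAUR71 (AT1G56150) had 12.7-fold (10.9 to 14.7) and 14.1-fold (12.2 to 16.3), 326 bp off its lower-coordinate end. SAUR59 (AT3G60690) had 11.6-fold (9.92 to 13.5) and 11.4-fold (9.67 to 13.4), 295 bp off. Both were the gene nearest to the summit. SAUR48 (AT3G09870) had 10.9-fold and 11.3-fold, 569.5 bp off, and SAUR17 (AT4G09530) had 10.6-fold (8.94 to 12.4) and 11.3-fold (9.60 to 13.3), 1868.5 bp off. The counting intervals of the replicates overlapped at each of these genes for which they could be given.

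The other 28 bound SAUR genes outside clusters ran from 10.7-fold at SAUR33 down to 2.01-fold at SAUR75, a value at percentile 4.68 of all shared peaks. Some have a known role and are named here with their values seen. In the SAUR41 subfamily all 4 genes were bound, against 88.4% of SAUR genes outside clusters and 57.4% of all nuclear genes. With so few genes nothing is read from this count. Beside SAUR41 and SAUR71, SAUR40 had 7.72-fold (6.53 to 9.07) and 8.09-fold (6.79 to 9.58), and SAUR72 had 5.69-fold (4.56 to 7.02) and 6.05-fold (4.81 to 7.52). SAUR10, which FUL represses in stem and leaf growth, had 4.33-fold (3.33 to 5.55) and 5.07-fold (3.94 to 6.42). SAUR32, which acts in the apical hook, had 5.54-fold (4.39 to 6.90) and 6.27-fold (5.01 to 7.77). These peaks were close to or moderately above the 4.39-fold median of bound genes. Of the related genes SAUR76 to SAUR79, SAUR78 had 6.03-fold and 5.14-fold, SAUR77 4.26-fold and 3.18-fold and SAUR79 2.78-fold and 2.88-fold, while SAUR76 was not bound.

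**Figure D2:**
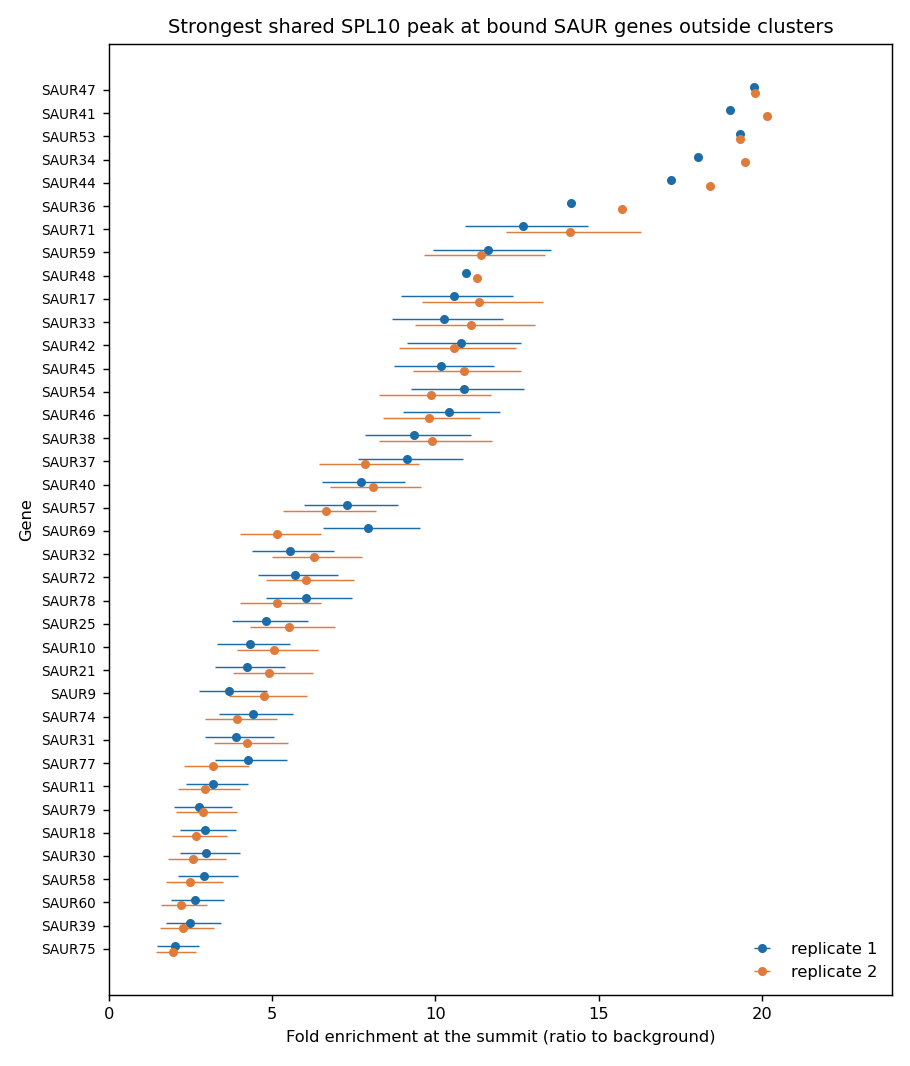
Fold enrichment at the summit (ratio to the caller's background, horizontal axis) of the strongest shared peak of the 38 bound SAUR genes outside clusters, with 1 point per replicate and bars for the exact Poisson interval on recovered tags (95%), left out above 198 tags. The values fall from near 20-fold at SAUR47 to 2.01-fold (mean) at SAUR75, and the replicates lie farthest apart, as a ratio, at SAUR69, with 7.94-fold and 5.14-fold.

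The 5 SAUR genes outside clusters with no shared peak were SAUR8, SAUR35, SAUR43, SAUR55 and SAUR56. Near SAUR56 a shared peak of 19.9-fold and 18.6-fold stood 3269 bp off, beyond the window. For the other 4 the nearest shared summit lay between 5167.5 bp (SAUR8) and 13184.5 bp (SAUR43) away.

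The 9 tandem clusters fell into those with strong peaks and those with nearly none. In the SAUR51 and SAUR52 cluster both genes were bound, and SAUR51 (AT1G75580) had the strongest peak of the family, 19.97-fold and 20.8-fold, at positions 28380035 to 28380492 of chromosome 1, 1937 bp beyond its higher-coordinate end. In the cluster of SAUR13 to SAUR16 all 4 genes were bound, but none was the gene nearest to its strongest summit. The nearest gene was AT4G38870 for SAUR16 and a long noncoding RNA gene for each of the others. The only shared peak of SAUR14 also lay in the SAUR15 window. SAUR16 (AT4G38860), a gene of light-regulated seedling growth, had the strongest peak there, 15.5-fold and 17.2-fold, while SAUR15, the early auxin-induced gene once called SAUR-AC1, had 3.86-fold (3.01 to 4.88) and 2.82-fold (2.11 to 3.71). In the cluster of SAUR7, SAUR6 and SAUR12 all 3 were bound, led by SAUR12 (AT2G21220) at 15.8-fold and 16.4-fold, with the summit 576.5 bp off. The only SAUR7 peak and all SAUR6 peaks also lay in the window of another gene of the cluster. The gene nearest to the strongest summit was AT2G21195 for SAUR7 and a long noncoding RNA gene for SAUR6. Strong and weak peaks thus stood side by side within a cluster. Over all clusters the member was the gene nearest to its strongest summit for 5 of 12 bound genes.

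The cluster of SAUR49, SAUR50 and SAUR1 to SAUR5 was divided along its length. SAUR50 (AT4G34760), another gene of light-regulated seedling growth, had 14.5-fold and 13.9-fold, and SAUR49 (AT4G34750), which acts in leaf senescence, had 9.52-fold (8.04 to 11.2) and 11.4-fold (9.67 to 13.4). SAUR1, SAUR2, SAUR3, SAUR4 and SAUR5, in the same row, had no shared peak in their windows. In the cluster of SAUR26, SAUR27, SAUR28, SAUR29 and SAUR73, only SAUR29 was bound, at 2.85-fold (2.05 to 3.86) and 4.09-fold (3.08 to 5.32), with a summit inside EDA30 and 1770 bp off.

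No gene was bound in 4 clusters: SAUR61 to SAUR65, SAUR66 to SAUR68, SAUR19 to SAUR24, and SAUR70 with SAUR76. The SAUR19 subfamily is the best-studied group of SAUR genes that drive hypocotyl and leaf cell expansion, and SAUR61 to SAUR68 contain SAUR63, which acts in hypocotyl and stamen filament growth. The SAUR19 to SAUR24 cluster spanned 21.5 kb, and its nearest shared summit lay 7114 bp below SAUR19, at 10.9-fold and 11.7-fold. Between the shared summits on either side of that cluster lay 43.4 kb, longer than 99.7% of all 16692 gaps between neighbouring shared summits, whose median was 4.83 kb. Both SAUR61 to SAUR68 clusters lay in 1 gap of 66.0 kb, at percentile 99.9. These clusters were singled out because no gene in them was bound, so long gaps follow largely from that choice. The 95th percentile of all gaps was 21.2 kb, about the span of the SAUR19 to SAUR24 cluster itself. The ranks thus describe the gaps and are no separate evidence of missing peaks. The 2.20-fold and 2.83-fold peak 2445 bp below SAUR61 was the nearest shared peak to all 8 genes.

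Copies in tandem arrays resemble each other, and reads that match several places may be lost or spread between them. Whether this lowered the signal over the unbound clusters was not tested, as the reads and the sequence of the copies were not used here. In the same 4 clusters, peaks listed in 1 replicate without a shared partner were few and weak, with 2.42-fold and 1.75-fold near SAUR70, 1.70-fold near SAUR19 and 1.65-fold near SAUR65.

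**Figure D3:**
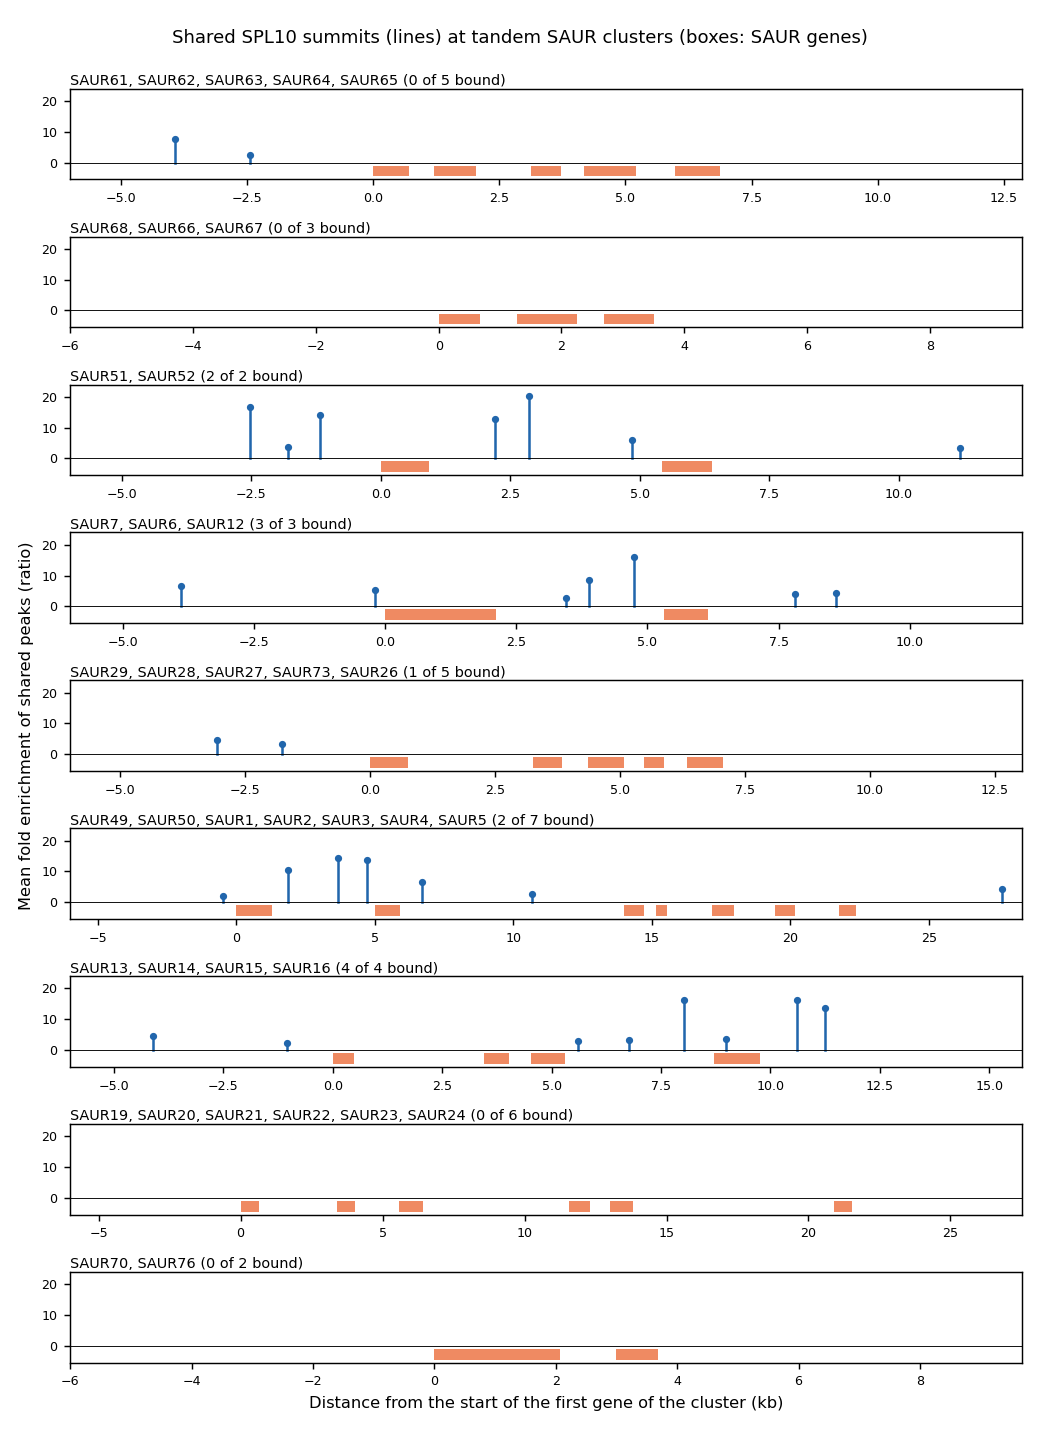
Shared SPL10 summits (blue lines, height is the mean fold enrichment of both replicates) along the 9 tandem SAUR clusters, with distance in kb from the start of the first gene of each cluster and boxes for SAUR genes (SAUR7 and SAUR6 overlap and are drawn as 1 box). Summits of over 10-fold stand beside SAUR51, SAUR12, SAUR49, SAUR50 and SAUR16, and no summit stands within 2 kb of any gene of the clusters of SAUR61 to SAUR65, SAUR66 to SAUR68, SAUR19 to SAUR24 and SAUR70 with SAUR76.

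The 32 IAA genes comprised 29 Aux/IAA genes and 3 ARF genes that carry IAA numbers as synonyms. Of the 32, 21 were bound, or 65.6% (46.8% to 81.4%), against 57.4% of all nuclear genes and 59.9% of protein-coding genes. The background lay within the interval, so the count does not set the family apart. The median of their strongest peak was 4.73-fold, against 4.39-fold over all bound nuclear genes, and 3 of 32 genes, or 9.38%, had a peak of 10-fold or more, against 7.62%. At both levels the IAA genes were near the background. Among SAUR genes outside clusters, 34.9% (21.0% to 50.9%) had a peak of 10-fold or more, and the exact interval for the IAA genes overlapped this range. The 10-fold level was chosen after seeing the data and the families were not tested against each other, so no difference between them is read from these shares.

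The strongest peaks at Aux/IAA genes were those of IAA18 and IAA2. IAA18 (AT1G51950), a repressor in embryo and lateral root patterning, had 12.1-fold (10.4 to 14.1) and 12.2-fold (10.4 to 14.2) at positions 19303908 to 19304325 of chromosome 1, 950 bp off its lower-coordinate end and nearer to a long noncoding RNA gene. IAA2 (AT3G23030), an early auxin-induced repressor, had 11.3-fold (9.59 to 13.2) and 10.6-fold (8.90 to 12.5) at positions 8182331 to 8182694 of chromosome 3, beyond its higher-coordinate end by 421 bp. Inside ARF19 (AT1G19220, synonym IAA22), an activating ARF of lateral root formation, the strongest shared peak had 14.1-fold (12.2 to 16.2) and 13.7-fold (11.8 to 15.8), the highest fold under the IAA names.

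A middle group of Aux/IAA genes had peaks between 4.31-fold and 7.52-fold in each replicate. IAA20 had 7.52-fold (6.17 to 9.08) and 7.48-fold (6.09 to 9.10) inside the gene, IAA15 had 6.60-fold and 7.25-fold inside the gene, and IAA13 had 6.15-fold and 6.97-fold at a summit inside SUVH2, a histone methyltransferase family gene. SHY2 (IAA3), which sets the size of the root meristem, had 6.46-fold (5.21 to 7.92) and 5.29-fold (4.14 to 6.68), and IAA7 (AXR2), a repressor of gravitropism and growth, had 5.25-fold (4.14 to 6.58) and 5.595-fold (4.41 to 7.01). IAA33 had 5.82-fold and 5.97-fold, with its summit inside GS1. IAA26, named PAP1 in the table as a phytochrome-associated protein, had 5.47-fold and 4.77-fold, IAA16 had 4.71-fold and 4.75-fold, and IAA19 (MSG2), a repressor of hypocotyl bending, had 4.33-fold and 4.31-fold.

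Weaker peaks stood at the other 8 bound Aux/IAA genes, all below the 4.39-fold median of bound genes. IAA9, whose loss alters leaf form in tomato, had 3.91-fold (3.03 to 4.99) and 3.42-fold (2.54 to 4.52), and IAA17 (AXR3) had 3.06-fold (2.23 to 4.11) and 3.48-fold (2.57 to 4.63). IAA4 had 3.18-fold and 4.17-fold, IAA5 3.63-fold and 3.33-fold, and IAA29, a gene induced in shade, 2.86-fold and 3.53-fold. IAA12 (BDL), the partner of MP in embryo root formation, had 2.33-fold (1.69 to 3.15) and 3.09-fold (2.31 to 4.05). IAA34 had 2.19-fold and 2.62-fold and IAA6 2.35-fold and 2.20-fold, the lowest mean of both replicates in the family. MP (ARF5, synonym IAA24) had 2.57-fold (1.81 to 3.53) and 3.03-fold (2.18 to 4.11), 267.5 bp off.

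**Figure D4:**
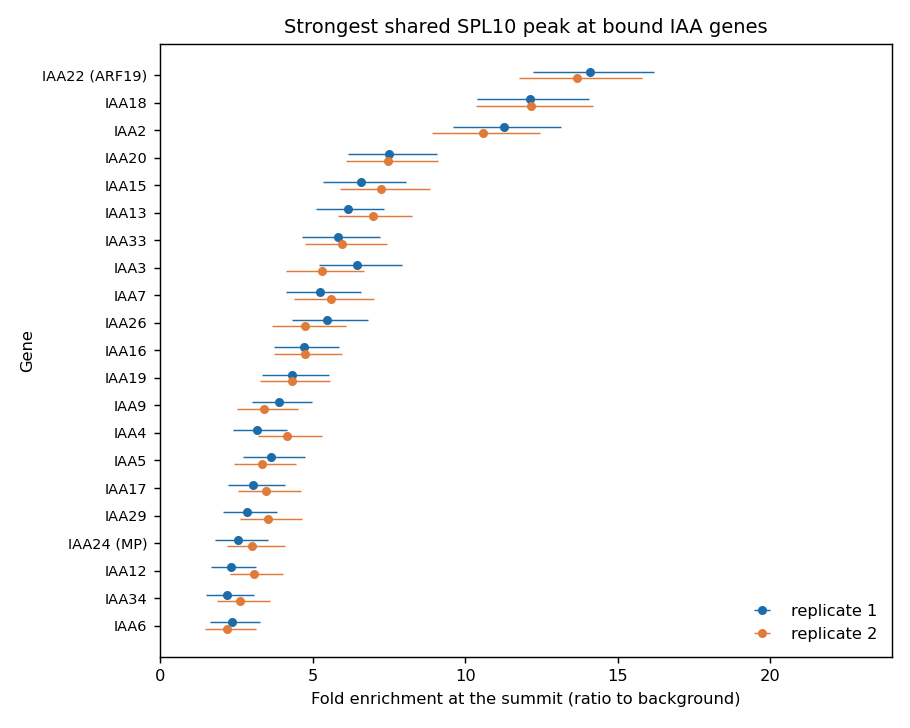
Fold enrichment at the summit (ratio to the caller's background, horizontal axis) of the strongest shared peak of the 21 bound IAA genes, with 1 point per replicate and bars for the exact Poisson interval on recovered tags (95%). IAA22 (ARF19), IAA18 and IAA2 lie above 10-fold in both replicates, and the lowest by the mean of both replicates is IAA6 with 2.35-fold and 2.20-fold, although IAA34 is lower in replicate 1 with 2.19-fold.

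Not bound were IAA1, IAA8, IAA10, IAA11, IAA14, IAA27, IAA28, IAA30, IAA31 and IAA32, together with NPH4 (ARF7, synonyms IAA21, IAA23 and IAA25), a close relative of ARF19. Their nearest shared summits lay 2444 to 6052.5 bp away. IAA14 (SLR), the repressor of lateral root founder divisions, had its nearest shared peak 3845.5 bp off, at 2.35-fold and 2.65-fold. IAA28 was nearest to a strong one: a shared peak of 10.3-fold and 13.1-fold stood 2479.5 bp off, outside the window.

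The values of closely related Aux/IAA genes are given side by side as a description. Of 9 sister pairs, both genes were bound in 4, a single gene in 4, and neither in 1 (IAA10 and IAA11), and with 57.4% of all nuclear genes bound nothing is read from this split. IAA2 had a mean of 10.9-fold and IAA1 no shared peak, and likewise IAA20 had 7.52-fold and 7.48-fold with none at IAA30, IAA7 a mean of 5.42-fold with none at IAA14, and IAA9 3.66-fold with none at IAA8. Where both were bound the folds could differ: IAA18 had 12.1-fold and IAA26 5.10-fold, and IAA13 6.55-fold and IAA12 2.68-fold, with counting intervals that did not overlap in either replicate. A set of 6 Aux/IAA genes (IAA20 and IAA30 to IAA34) was listed as lacking a complete degron, without a check of their sequences. Of these, 3 were bound, or 50% (11.8% to 88.2%), against 16 of the 23 others, or 69.6% (47.1% to 86.8%). Both intervals held the 57.4% of all nuclear genes.

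Most of the strongest peaks stood beside the genes and not in them. For bound SAUR genes the strongest summit lay inside the gene in 3 of 50 cases, or 6%, against 14.5% for bound coding genes of up to 1000 bp. For bound IAA genes it was inside in 6 of 21 cases, or 28.6%, against 30.4% over all bound nuclear genes. The lower-coordinate and the higher-coordinate side held 24 and 23 of the SAUR summits and 7 and 8 of the IAA summits, and which side is the promoter was not used here. The member was the gene nearest to its strongest summit for 24 of 50 bound SAUR genes and 11 of 21 bound IAA genes, against 49.1% of all bound nuclear genes. A peak counted for a member could thus also be assigned to a neighbour, as at SAUR47, SAUR34 and SAUR36, where the summit lay inside another coding gene.

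The values just inside and just outside the window limit show how it divided peaks. Inside it, a peak of 3.86-fold and 2.82-fold lay 1947.5 bp from SAUR16, the strongest SAUR51 peak lay 1937 bp off, and SAUR18 was bound by a peak 1935.5 bp off at 2.94-fold and 2.67-fold. Outside it, peaks lay 2035.5 bp from SAUR41 at 3.38-fold and 3.56-fold and 2066 bp from SAUR59 at 13.3-fold and 15.4-fold, both genes bound by other peaks. Several shared peaks could fall in 1 window: 4 of 80 SAUR genes, or 5%, had 4 or more, against 1.05% of all nuclear genes, and 21, or 26.3%, had at least 2, against 20.6%.

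At shared peaks the fold values were close between replicates. Of the nuclear peaks, 77.7% in replicate 1 and 78.2% in replicate 2 were shared. Peaks in 1 list alone did not enter these comparisons, so larger differences may be missed. Over the members' shared peaks the higher replicate exceeded the lower by a median factor of 1.09 and at most by 1.54, at SAUR69. Over the 111 distinct shared peaks in the members' windows, the recovered tag numbers differed at none with an adjusted p under 0.05 (exact binomial test, two-sided, Benjamini-Hochberg over all 16697 shared peaks), against 0.00599% of all shared peaks. At an unadjusted p under 0.05 there were 2, or 1.80%, against 1.29% of all shared peaks. The larger difference was at the SAUR69 peak with 7.94-fold and 5.14-fold (111 and 67 tags, exact unadjusted p = 0.00425, adjusted p = 1). No other tool was run. The 2 lists share their method and background and, given the labels, may be technical repeats.

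Lists of auxin pathway genes, 7 lists of 73 genes in all, ranged from near the background to bound throughout. The ARF list includes the 3 ARF genes already counted under IAA numbers. All 12 listed transport genes (PIN, AUX1 and LAX) and all 8 listed GH3 genes were bound, or 100% in each (exact binomial intervals 73.5% to 100% and 63.1% to 100%), against 57.4% of all nuclear genes. These genes are longer than most members, with a median of 3555.5 bp for transport and 2707.5 bp for GH3, against 1796 bp over all nuclear genes, so their windows are wider. The listed GH3 genes, whose enzymes inactivate auxin by joining it to amino acids, had a median strongest peak of 9.62-fold. Of the 8, 4 had a peak of 10-fold or more, or 50% (15.7% to 84.3%), against 7.62% of all nuclear genes. That level was chosen after seeing the data. The strongest were GH3.2 at 20.4-fold and 23.1-fold, GH3.3 at 16.5-fold and 18.6-fold and GH3.9 at 14.2-fold and 14.4-fold, all inside the gene. The transport genes had a median of 5.51-fold, led by PIN6 at 12.2-fold and 11.9-fold and LAX1 at 12.2-fold and 11.7-fold.

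In auxin synthesis 10 of 14 genes were bound, led by the YUCCA oxidase genes YUC11 at 20.7-fold and 23.0-fold and YUC10 at 18.6-fold and 20.8-fold. Of the ARF genes 15 of 22 were bound, with ARF8, a regulator of flower maturation, at 16.6-fold and 17.7-fold and ARF18 at 13.2-fold and 12.5-fold. Of the receptors 4 of 6 were bound, with AFB3 at 10.4-fold and 9.64-fold and TIR1 at 7.87-fold and 8.99-fold. Of the TPL corepressors 3 of 5 were bound, none above 4-fold in either replicate. Of the listed D-clade PP2C phosphatases and the proton pumps downstream of them 4 of 6 were bound, led by AHA1 at 7.23-fold and 6.65-fold. Apart from GH3 and transport, these shares lay between 60.0% and 71.4%, and the 57.4% background lay within the exact interval of each.

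**Figure D5:**
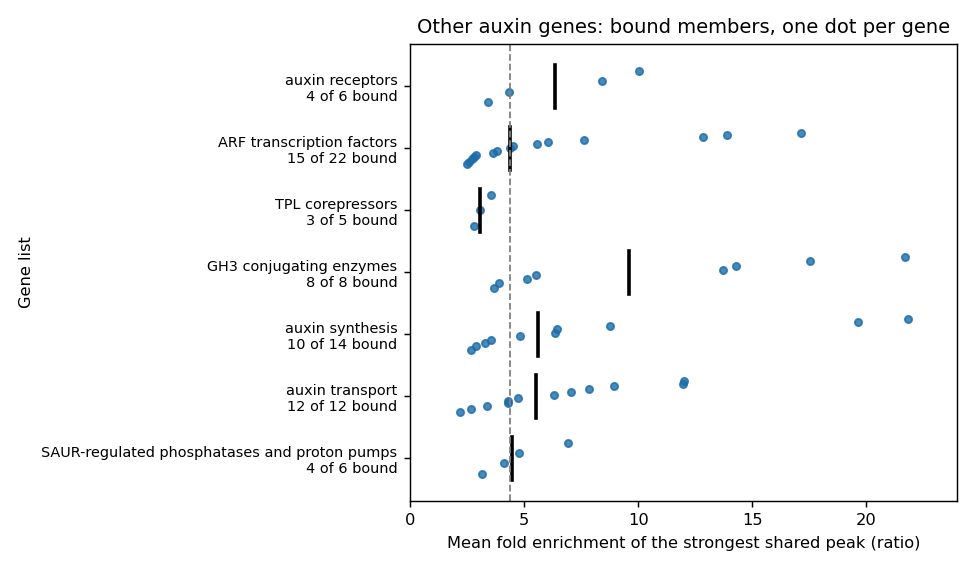
Mean fold enrichment of both replicates (ratio, horizontal axis) of the strongest shared peak of each bound gene in 7 lists of auxin pathway genes, 3 of the ARF genes being IAA members too, with 1 point per gene, a black bar at the median of the list and a dashed line at 4.39-fold, the median over all bound nuclear genes. GH3 genes have the highest median, 9.62-fold, and TPL corepressors the lowest, 3.05-fold.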

How the data were processed

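Peaks were listed per sample, not on pooled samples, and the peak names in the deposited files name MACS. The sources used here do not state its version, threshold or control. Cutadapt and TAIR10 are named in the submitters' processing notes. The deposited values per peak, a fold enrichment (ratio), −log10 q, −log10 p, and the score, within 1 of 10 times −log10 q for 100% of peaks, were used as given, with the deposited positions. The input log, as deposited by the authors, gave read-pair counts and alignment rates. Of the deposited peaks, 10.8% and 7.99% had a q-value above 0.05.

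Tag numbers were recovered from fold and −log10 p: 99.96% and 99.9% of shared peaks were matched, and all 111 of the members. On simulated data 100% of tag numbers (1471 and 1459 summits), of 1019 planted shared peaks and of 200 planted genes were returned. Genes came from a RefSeq table of TAIR10.1 without strand, so its coordinates are not printed. Promoter side, motifs and degron sequences were not analysed here. Of the 112 members, 40 matched by symbol and 72 by synonym. The 73 genes of the auxin lists were found by locus tag, and the 4 PP2C-D names are not in the table. SAUR21 names 2 genes, of which AT5G01830 lies far from the cluster. At 2865 bp AT5G01830 is the longest SAUR gene and sets the length limit of the background drawn from it.

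Members, lists and sister pairs were chosen with earlier results of these data known. Named were all IAA genes, each tandem cluster, the 10 strongest SAUR genes outside clusters and at most 3 genes per other list, of which 1 is not reported here. Alternatives changed the overlap, the peaks used, the window, the assignment and the cluster rule. Computations used Python 3.11.15, numpy 2.4.6, pandas 2.3.3 and scipy 1.17.1.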

Additional observations from a re-analysis of the deposited data

Results flagged for a closer look

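Of the 41 members without a shared peak, 9 had at least 1 peak in a single list, or in each list without sufficient overlap. The main comparisons did not use this signal. The same count was not made over all unbound nuclear genes, so nothing is read from it. Replicate 1 or replicate 2 alone bound 67.1% and 66.7% of all nuclear genes, against 57.4% with shared peaks. Of the 9, 3 had such peaks in replicate 1 alone, 2 in replicate 2 alone and 4 in each. Their folds ran from 1.58 to 2.99, the highest at IAA27 in replicate 1. The other 32 members had no peak in either list within 2000 bp.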

How the results depend on the processing

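No paired analysis was possible because the results come from no test between groups that share replicate numbers. A share or median was taken as moved when it left the 95% interval of the reported value (for medians, an order-statistic interval). With −log10 q of at least 10 in both replicates, 37.5% of IAA genes, 46.25% of SAUR genes and 63.5% of SAUR loci were bound, against 34.4% of all nuclear genes. With the 5000 shared peaks of highest fold these were 25%, 37.5% and 51.9%, against 21.7%, and the median folds of bound IAA and SAUR genes were 7.21 and 10.7, against 8.42 over all bound genes. With 1000 bp windows 45% of SAUR genes and 61.5% of loci were bound, against 43%. With a peak counted only for its nearest gene 37.5% of IAA genes, 40% of SAUR genes and 57.7% of loci were bound, against 33.8%. By symbol alone the SAUR list held 16 genes, of which 37.5% were bound. Without replicate 1 or 2, 68.75% to 71.875% of IAA genes, 68.75% of SAUR genes and 88.5% of loci were bound, against 66.7% and 67.1% of all genes, with medians of 4.33 to 4.53 for IAA and 5.89 to 6.05 for SAUR. The share bound was above that of all genes for SAUR genes outside clusters, and below it for clustered SAUR genes, in each of the 9 settings of peaks, windows and assignment, with no test of the difference. Neighbouring genes of a cluster were counted singly in these shares. For clustered genes the gap was small with the 5000 highest peaks (18.9%, against 21.7%). Added after seeing the data, leaving out the 3 ARF genes gave 65.5% of IAA genes bound, and leaving out AT5G01830 gave 62.0% of SAUR genes. Depth limits the weakest peaks most: IAA6, at 2.35-fold in replicate 1, had a counting interval of 1.64 to 3.29.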

Other observations

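The 4 SAUR genes with 4 or more shared peaks were SAUR41, SAUR16, SAUR51 and SAUR12. SAUR41 had 5: 19.0-fold and 20.1-fold at 1785.5 bp below the gene, 14.6-fold and 15.7-fold at 525.5 bp below, 13.7-fold and 14.1-fold inside it, 7.87-fold and 8.84-fold at 548 bp above, and 10.5-fold and 9.86-fold at 1305.5 bp above. SAUR16 also had 5, of which 3 were above 13-fold in both replicates: 15.3-fold and 17.2-fold at 676.5 bp below, 15.5-fold and 17.2-fold at 843.5 bp above and 13.5-fold and 13.97-fold at 1494 bp above. SAUR51 had 4, from 19.97-fold and 20.8-fold to 4.55-fold and 3.03-fold, and SAUR12 had 4, from 15.8-fold and 16.4-fold to 2.85-fold and 2.43-fold. None of the 32 IAA genes had 4, and IAA13 had the most, with 3. The genes were named after their values were seen, and the count was not tested.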
